A study of Homo sapiens with 27 samples.

Results

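The response of A431 cells to doxorubicin was measured in cells that were under Compound Kushen Injection (CKI). The comparison set the 3 libraries of cells given CKI plus doxorubicin against the 3 libraries of cells given CKI alone, and these 6 libraries were found by their labels among the 27 of the series. A431 is an established human epidermoid carcinoma line. CKI is an injectable extract of the medicinal plants Kushen and Baituling and was used at 1.0 mg/ml. Doxorubicin is an anthracycline used in chemotherapy, and its dose in these libraries is not given here because the labels name more than one. Both groups were sequenced after 48 h, and all cells of both groups had received CKI. The labels do not say whether the cells given CKI alone also received the solvent of doxorubicin, nor in which order the agents were added.

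The series held 9 groups of 3 replicates each, of which 5 were A431 groups (untreated, vehicle control, CKI, doxorubicin, and CKI plus doxorubicin) and the others were MDA-MB-231 breast carcinoma cells. The contrast of CKI plus doxorubicin with CKI used no value of the untreated or doxorubicin groups, which entered only the filter, the scaling and the estimate of the spread, so the doxorubicin response without CKI could be set beside it. With the compared groups fitted alone, 3550 of 15019 genes were called. The labels call the samples biological replicates without saying how they were separated, and the p-values measure the spread between these libraries. All data are from 1 cell line and 1 time.

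Doxorubicin inserts between DNA bases and holds type II topoisomerases on broken DNA. Broken or misplaced nucleic acid can be detected by cytosolic sensors, which induce type I and type III interferons, and these act through STAT2 and IRF9 to raise a large set of antiviral genes that carry an interferon-stimulated response element in their promoters. A431 cells descend from epidermal keratinocytes, carry many copies of the EGFR gene, and keep parts of the keratinocyte programme of keratins and cornified envelope proteins.

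The deposited values were raw read counts per gene, with totals of 19528840 to 21105289 in the CKI libraries and 17849352 to 19453887 in the CKI plus doxorubicin libraries. Levels are given as CPM, the counts of a gene relative to the TMM-scaled library total, and 3 counts in a CKI library corresponded to 0.151 CPM on average. A gene was called changed when edgeR's quasi-likelihood test gave a Benjamini-Hochberg adjusted p under 0.05 over all genes tested and the log2 fold change was beyond 1 in either direction. Log2 fold changes are CKI plus doxorubicin minus CKI unless stated otherwise, and are given with their standard error (SE). No library stood apart from its group. All 12 keratinocyte markers were detected in every library, with a summed level of 15520 to 16240 CPM under CKI and 12128 to 13014 CPM with doxorubicin, of which KRT17 rose and ITGB4 and EGFR fell. In RNA from whole cultures, fewer cells of a type and less RNA per cell cannot be told apart.

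Doxorubicin changed 4077 of the 15881 tested genes in cells under CKI (25.7%). The calls were 2638 higher genes (16.6%) and 1439 lower genes (9.06%), so 64.7% of the calls rose. The split depends on scarce genes, since among genes with at least 10 counts in every library 809 were higher and 1028 lower (44% higher). Without the fold limit 11634 genes passed the adjusted p (73.3%). In 4020 of the called genes the libraries of the compared groups did not overlap, whereas over all tested genes the libraries did not overlap in 78.8%. The median log2 fold change of all tested genes was 0.05. With scaling by library size alone that median moved to 0.26 and the called genes became 3188 higher and 969 lower, so that 76.7% of them rose, and the changes below are relative to the TMM scaling.

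Most of the higher calls lay in scarce genes. The test kept genes that were near 0 under CKI if another group was high, and such genes can only rise, so the levels of the called genes are a description. The median level of the higher genes under CKI was 0.222 CPM and that of the lower genes was 34.6 CPM. Of the 2638 higher genes, 1946 were under 1 CPM in cells given CKI alone, and of the 1439 lower genes only 59 were. Among the 2722 genes at 100 CPM or more in the higher group, a subset chosen after the values were seen, 96 rose (3.53%) and 379 fell (13.9%), with a median log2 fold change of -0.23.

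The list of interferon-stimulated effectors, which holds genes that restrict viral replication, had the largest median of the 21 gene lists. Of its 36 tested members, 33 rose, beside 16.6% of all tested genes, and none fell. The median log2 fold change of the 36 was 2.38 against 0.05 over all genes. Their summed level was 3308 to 3405 CPM in the CKI libraries and 11159 to 11469 CPM in the CKI plus doxorubicin libraries. The 3 members not called were EIF2AK2 with a log2 fold change of 0.87, BST2 with 0.30 and LGALS3BP with -0.28. The list was chosen with earlier results of these data known, so its count describes these libraries and is not independent evidence.

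The promoters of these effectors show letters that other promoters seldom hold. RefSeq windows of 250 bases before to 50 bases after a start (GRCh38.p14) were found for 27 of the 33 called effectors, and 20 of the 27 held the core letters of the interferon-stimulated response element on either strand, searched as GAAA, any 2 bases and GAAA again. By window, the letters were in 25 of 39 (64.1%) for the effectors and in 548 of 18219 (3.01%) for all tested genes. Of the 41 matches in the effector windows, 40 began upstream of the start. Windows of alternative starts of 1 gene can overlap. The sites of IFI27, IFI44 and PLSCR1 were counted in more than 1 window, so the counts of windows and matches hold repeats. The 250 bases upstream of the start are shown for 4 of the effectors, 5′ to 3′ on the strand of the gene, with these letters or their reverse complement in capitals. A match describes the letters only and is not a measured binding site. The list was made of genes known to respond to interferon, a class that carries this element. The share therefore follows from the choice of the list and is not a result of these libraries.
IFI6 (chr1:27672193-27672442, minus strand), an inhibitor of mitochondrial apoptosis and of viral replication, with 3 matches of which the most distal began 156 bases before the start:
IFI6: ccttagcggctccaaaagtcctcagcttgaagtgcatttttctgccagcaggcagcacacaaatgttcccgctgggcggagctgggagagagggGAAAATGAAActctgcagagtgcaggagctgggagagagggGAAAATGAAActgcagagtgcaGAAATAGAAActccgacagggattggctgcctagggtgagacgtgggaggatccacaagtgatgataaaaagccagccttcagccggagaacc
IFIT1 (chr10:89392373-89392622, plus strand), which binds RNA lacking a host cap, with 2 matches:
IFIT1: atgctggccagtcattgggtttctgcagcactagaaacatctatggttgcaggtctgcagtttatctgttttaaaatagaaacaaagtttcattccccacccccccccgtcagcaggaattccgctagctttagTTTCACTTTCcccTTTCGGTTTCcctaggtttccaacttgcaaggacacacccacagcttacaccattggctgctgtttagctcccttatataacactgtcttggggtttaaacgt
ISG15 (chr1:1013247-1013496, plus strand), a ubiquitin-like modifier, with 2 matches that overlap each other:
ISG15: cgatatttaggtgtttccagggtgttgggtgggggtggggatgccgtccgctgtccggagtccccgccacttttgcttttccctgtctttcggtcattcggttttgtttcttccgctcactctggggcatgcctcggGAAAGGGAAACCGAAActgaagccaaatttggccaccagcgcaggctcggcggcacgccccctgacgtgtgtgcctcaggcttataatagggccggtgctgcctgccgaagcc
RSAD2 (chr2:6877527-6877776, plus strand), which encodes viperin, with 1 match:
RSAD2: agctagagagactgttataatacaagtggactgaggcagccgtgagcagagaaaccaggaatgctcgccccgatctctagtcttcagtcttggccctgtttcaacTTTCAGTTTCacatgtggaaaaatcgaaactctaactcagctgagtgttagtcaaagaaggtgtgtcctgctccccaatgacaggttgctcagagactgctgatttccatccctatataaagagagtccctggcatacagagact

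MX2 (chr21:42733926-42781320, GRCh37), a dynamin-like GTPase that blocks retroviral entry into the nucleus, stood at 4.65, 3.57 and 3.33 CPM under CKI and at 138, 138 and 139 CPM with doxorubicin. Its log2 fold change was 5.16 (SE 0.085, adjusted p = 3.8e-22), the largest of the effectors. RSAD2 (chr2:7005688-7038370), whose promoter is shown above, was measured at 7.75, 9.43 and 10.3 CPM against 183, 179 and 178 CPM, a log2 fold change of 4.30 (SE 0.087, adjusted p = 1.1e-20). IFI6 (chr1:27992575-27998723) went from 51.1, 52.9 and 53.6 CPM to 909, 814 and 878 CPM, a log2 fold change of 4.04 (SE 0.078, adjusted p = 5.1e-21). In all 3 genes every CKI library lay far below every CKI plus doxorubicin library. RSAD2 lies beside CMPK2 on the opposite strand, and overlapping genes cannot be told apart in these counts without strand information. Among the genes at 100 CPM or more, the 12 largest rises were MX2, RSAD2, IFI6, IFI44L, ISG15, OAS2, LAMP3, ISG20, MX1, OASL, OAS1 and IFIT3, of which all but LAMP3 are in the effector list.

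Upstream of the effectors, the ligands of type III interferon, which act on epithelial cells through IFNLR1, appeared at low level. IFNL1 (chr19:39787047-39789313) was at 0.0969, 0.248 and 0.106 CPM under CKI and at 3.70, 3.30 and 3.27 CPM with doxorubicin, a log2 fold change of 4.45 (SE 0.31, adjusted p = 1.3e-11). IFNL2 had no count in any CKI library and 27, 30 and 37 counts with doxorubicin, at least 10-fold higher when set against 3 counts per library. IFNL3 had 0, 1 and 0 counts against 35, 36 and 33 counts, a ratio of 99.4 (95% exact interval 17.5 to 3964, counting error only). IFNL2 and IFNL3 are near-identical copies of each other, so reads may be split between them. Of the 9 ligands and receptors tested, 4 rose (IFNL1, IFNL2, IFNL3 and IFNB1) and none fell, with a median log2 fold change of 0.16. All tested genes were 16.6% higher. The 4 that rose were under 1 CPM with CKI alone, where a gene can hardly fall. Of the 5 at 1 CPM or more there, 0 rose (median -0.13).

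Of the 10 nucleic acid sensors, 4 rose and none fell (median log2 fold change 0.74), beside 16.6% higher of all tested genes. At 1 CPM or more under CKI, 3 of 9 rose. ZBP1 (chr20:56178902-56195632), a sensor of left-handed nucleic acid that can start necroptosis, was at 0.194, 0.198 and 0 CPM under CKI and at 8.47, 9.33 and 8.35 CPM with doxorubicin, a log2 fold change of 5.96 (SE 0.29, adjusted p = 2.9e-14). RIGI (chr9:32455300-32526206), the sensor of RNA ends with triphosphates, was at 31.2, 30.2 and 30.1 CPM against 209, 208 and 215 CPM, a log2 fold change of 2.79 (SE 0.072, adjusted p = 4.7e-19). IFIH1, the sensor of long double-stranded RNA also called MDA5, rose by a log2 fold change of 1.93 (SE 0.069, adjusted p = 1.4e-16), and STING1, the adaptor for cytosolic DNA, rose by 1.23. The groups did not overlap for ZBP1, RIGI and IFIH1.

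The transcription factors that carry the interferon signal rose too, 4 of 7 with none lower and a median log2 fold change of 1.10. Over all tested genes 16.6% rose. IRF7 (chr11:612553-615983), which drives interferon genes, was at 17.1, 20.1 and 18.7 CPM against 109, 104 and 104 CPM, a log2 fold change of 2.51 (SE 0.10, adjusted p = 1.4e-15). IRF9, the DNA-binding partner of STAT2, rose from 0.969, 0.695 and 1.75 CPM to 5.92, 5.98 and 5.94 CPM (log2 fold change 2.40, SE 0.24, adjusted p = 7.1e-09).

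**Figure D1:**
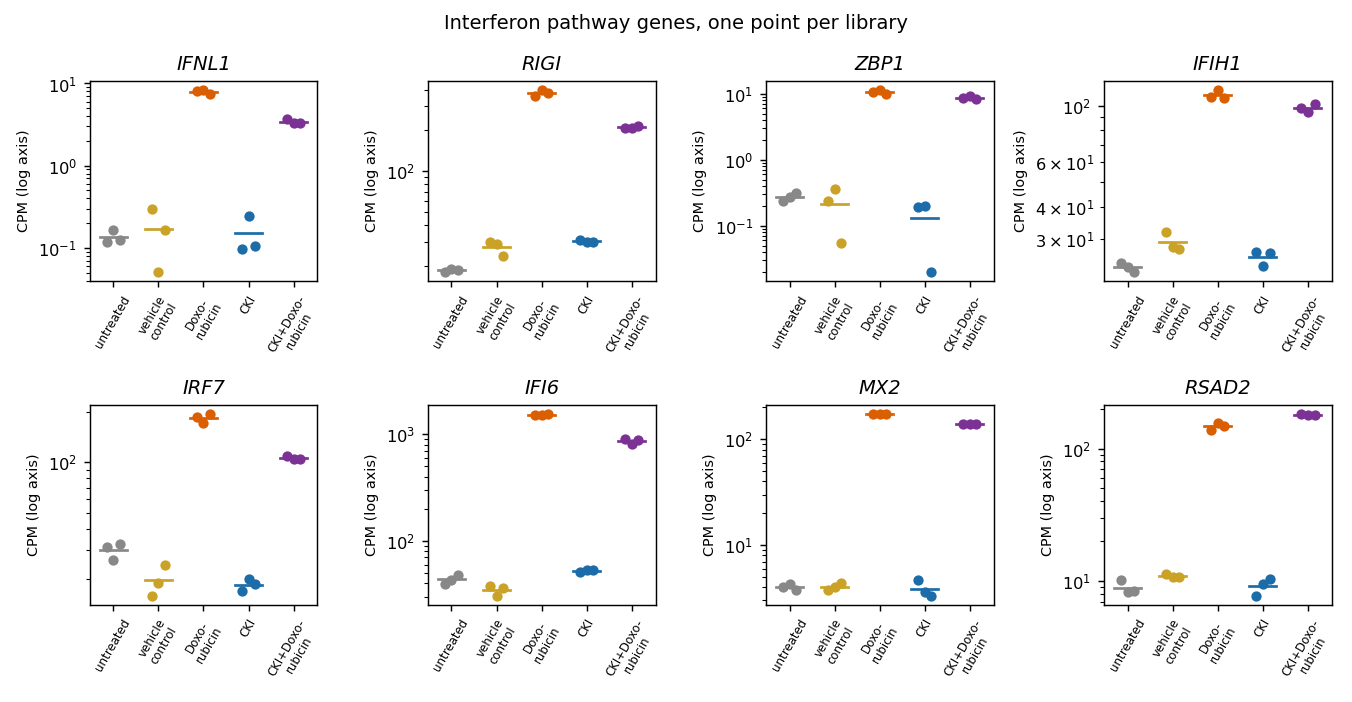
CPM of 8 interferon pathway genes on a log axis, with 1 point per library, a line at the mean of the 3 libraries, and groups from untreated to CKI plus doxorubicin along the x axis (a library at 0 is drawn at the foot of the axis). In every panel the 3 CKI plus doxorubicin libraries lie above the 3 CKI libraries, and the doxorubicin libraries lie above the untreated ones.

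Antigen presentation genes, many of which interferon also raises, moved less. Of 15 tested, none was called higher and 1 was called lower, TAPBP, the chaperone tapasin, at 295, 296 and 289 CPM against 127, 116 and 125 CPM (log2 fold change -1.26, SE 0.077, adjusted p = 1.8e-12). The median log2 fold change was 0.63, and the summed level was 9747 to 10013 CPM against 14568 to 15060 CPM. The count of 0 higher genes rests on the fold limit, since 14 members had an unadjusted p under 0.05 and DESeq2 called 3 higher.

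The interferon response with CKI could be compared with that without it. Doxorubicin against untreated called 5925 of 15881 genes (37.3%), with 23% of the tested genes higher and 14.3% lower, and it raised 33 of the 36 effectors with a median log2 fold change of 2.65. The difference of the responses to doxorubicin, with CKI minus without, was tested for each gene and called 3092 of 15881 (19.5%), with 1360 higher (8.56%) and 1732 lower (10.9%). With scaling by library size alone, 33.0% of these differences were higher, against 44% with TMM, and the rise without CKI became 78.3% of its calls, against 61.6%. The difference was called for 4 of the 36 effectors, all with the smaller rise under CKI, namely IFIT2 (-1.76), OASL (-1.52), IFI6 (-1.10) and HERC5 (-1.06). That share is near the 10.9% of all tested genes with a lower difference, and the median difference of the list was -0.09. RIGI rose less under CKI, by 1.56 on the log2 scale (SE 0.10, adjusted p = 1.8e-11), and with vehicle control cells in place of untreated cells this difference was -0.99 and was not called. IRF9 rose more under CKI, with a difference of 1.60 (SE 0.34, adjusted p = 2.9e-04), and of 1.00 with vehicle control. For MX2 the difference was -0.27 (SE 0.14) and was not called.

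Over all genes, 2968 were called in the same direction with and without CKI, which is 72.8% of the calls under CKI and 50.1% of the calls without it. A further 79 were called in opposite directions. The difference itself was called for 1007 of the 4077 genes.

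**Figure D2:**
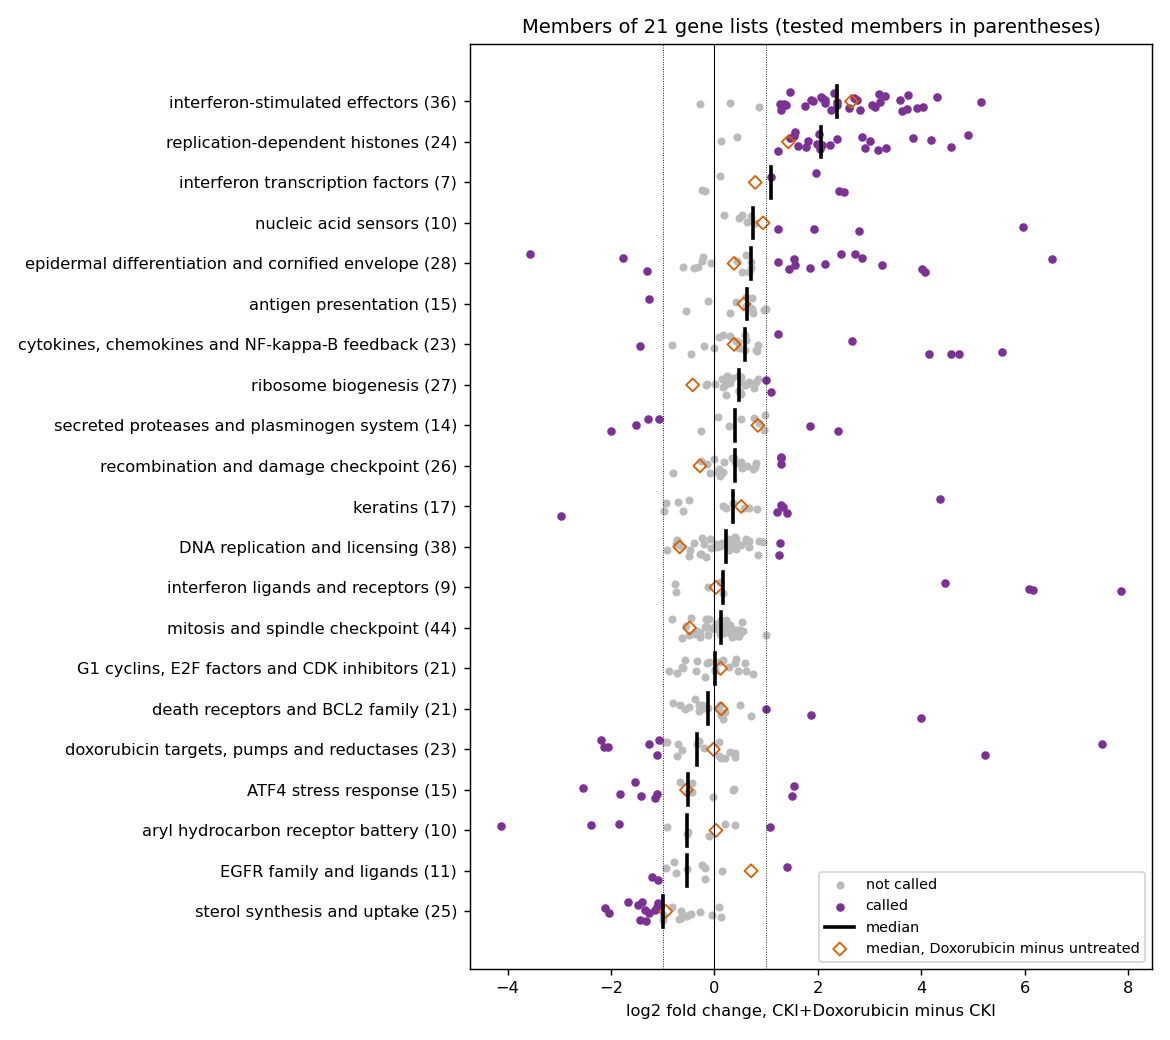
Log2 fold change, CKI plus doxorubicin minus CKI, of each tested member of 21 gene lists, ordered by the list median (black bar), with called members in purple and the median for doxorubicin minus untreated as an open diamond. The interferon-stimulated effectors and histones have medians of 2.38 and 2.06, and the sterol genes have a median of -1.0.

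Replication-dependent histones, which package new DNA and whose mRNAs end in a stem-loop in place of a poly(A) tail, had the second largest median of the 21 lists. Of 34 histone genes in the table, 24 were tested, 22 rose and none fell, beside 16.6% higher of all tested genes. The filter left 10 untested and kept some near 0 under CKI that could only rise. The median log2 fold change of the 24 was 2.06. Their summed level was 149 to 156 CPM under CKI and 548 to 582 CPM with doxorubicin. H4C8 was measured at 2.57, 2.18 and 2.33 CPM against 36.6, 32.3 and 32.7 CPM (log2 fold change 3.84, SE 0.13, adjusted p = 4.7e-17). H3C4 was at 0.0969, 0.248 and 0.265 CPM against 5.18, 4.21 and 5.48 CPM (log2 fold change 4.58, SE 0.30, adjusted p = 4.6e-12). H4C11 had 1, 0 and 1 counts against 28, 32 and 15 counts, a ratio of 35.8 (95% exact interval 9.58 to 301). Histone copies are alike in sequence, so the share of reads given to each is uncertain. The study's methods do not say whether RNA was selected by its poly(A) tail, so the form of histone transcript counted is not known. Of the 11 members at 1 CPM or more under CKI, 10 rose.

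Without CKI, 15 of the 24 histone genes rose and 5 fell (median log2 fold change 1.43). The difference of the responses was called for 10, all with the larger rise under CKI, and for 7 higher and 1 lower with vehicle control in place of untreated. The summed histone level of the doxorubicin libraries, 598 to 614 CPM, lay near that with CKI plus doxorubicin, whereas untreated cells were at 259 to 266 CPM and CKI cells at 149 to 156 CPM.

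Few cell division genes passed the test under CKI. Of 38 genes of DNA replication and licensing, RFC3, a clamp loader subunit, and GINS4, a subunit of the replicative helicase complex, rose and none fell, with a median log2 fold change of 0.22. RFC3 was at 8.33, 7.19 and 7.31 CPM against 17.9, 17.8 and 18.7 CPM (log2 fold change 1.25, SE 0.099, adjusted p = 1.4e-10), and GINS4 had a log2 fold change of 1.26 (SE 0.096, adjusted p = 8.4e-11). None of 44 genes of mitosis and the spindle checkpoint was called by edgeR (median 0.12), although 31 had an unadjusted p under 0.05 and DESeq2 called 1 higher. None of 21 G1 cyclins, E2F factors and CDK inhibitors was called by edgeR or DESeq2 (median 0.01), and 16 had an unadjusted p under 0.05. Of 26 genes of recombination and the damage checkpoint, 3 rose and none fell (median 0.39). That is a smaller share than the 16.6% of all tested genes that rose. The risers included TIPIN, which protects stalled forks, with 1.29 (SE 0.093), and CLSPN, the adaptor for CHEK1 activation, with 1.28 (SE 0.11).

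Cells given CKI alone held a lower level of these genes than untreated cells. The summed level of the replication genes was 5591 to 6083 CPM in untreated cells, 3875 to 3961 CPM with doxorubicin, 1276 to 1287 CPM with CKI, and 1357 to 1385 CPM with CKI plus doxorubicin. The mitosis genes were at 5929 to 6304, 4363 to 4505, 1735 to 1793 and 1868 to 1875 CPM in the same order. The doxorubicin responses with and without CKI differed for 9 of 38 replication genes, 4 of 44 mitosis genes and 4 of 26 recombination genes, in each case with the higher value under CKI, beside 8.56% of all tested genes with a higher difference. The mitosis count is near that share. Without CKI 6 replication genes and 4 mitosis genes fell. With vehicle control in place of untreated cells the counts of differing genes were 9, 4 and 5.

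TOP2A, the topoisomerase on which doxorubicin acts in dividing cells, stood at 184, 178 and 184 CPM under CKI and at 118, 116 and 120 CPM with doxorubicin (log2 fold change -0.62, SE 0.06, adjusted p = 4.3e-09), which is within the fold limit. FOXM1 and E2F1, transcription factors of the mitotic and G1/S programmes, had log2 fold changes of 0.38 (SE 0.075, adjusted p = 9.0e-05) and 0.39 (SE 0.074, adjusted p = 5.5e-05), also within the limit.

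CDKN1A (chr6:36644237-36655114), the CDK inhibitor p21 that damage induces, did not pass the test under CKI. It was at 469, 507 and 495 CPM under CKI and at 505, 478 and 499 CPM with doxorubicin, and the groups overlapped (log2 fold change 0.01, SE 0.054, adjusted p = 0.87). Untreated cells were at 84.0 CPM ± 3.99 (SD, n = 3) and doxorubicin cells at 277 CPM ± 13.3 (SD, n = 3), a log2 fold change of 1.72 (SE 0.057, adjusted p = 1.6e-17). The difference of the responses was -1.71 (SE 0.078, adjusted p = 5.7e-14), and with vehicle control, at 165 CPM ± 3.84 (SD, n = 3), it was -0.74 and not called.

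Ribosome biogenesis genes were 2 higher and none lower of 27 (median 0.48), beside 16.6% higher and 9.06% lower of all tested genes. NOP56, a core protein of box C/D particles, had 1.10 (SE 0.056, adjusted p = 5.8e-14), and RRN3, a factor of RNA polymerase I, had 1.00 (SE 0.071, adjusted p = 2.3e-11). Neither call held under offsets for GC content and length, which gave 0.89 and 0.87. Without CKI doxorubicin lowered 5 of the 27 and raised none (median -0.42), and the responses differed for 11, all higher under CKI, with examples in the nucleolar proteins FBL (1.39) and NPM1 (1.31). The summed level was 2279 to 2344 CPM under CKI and 2888 to 3002 CPM with doxorubicin added.

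**Figure D3:**
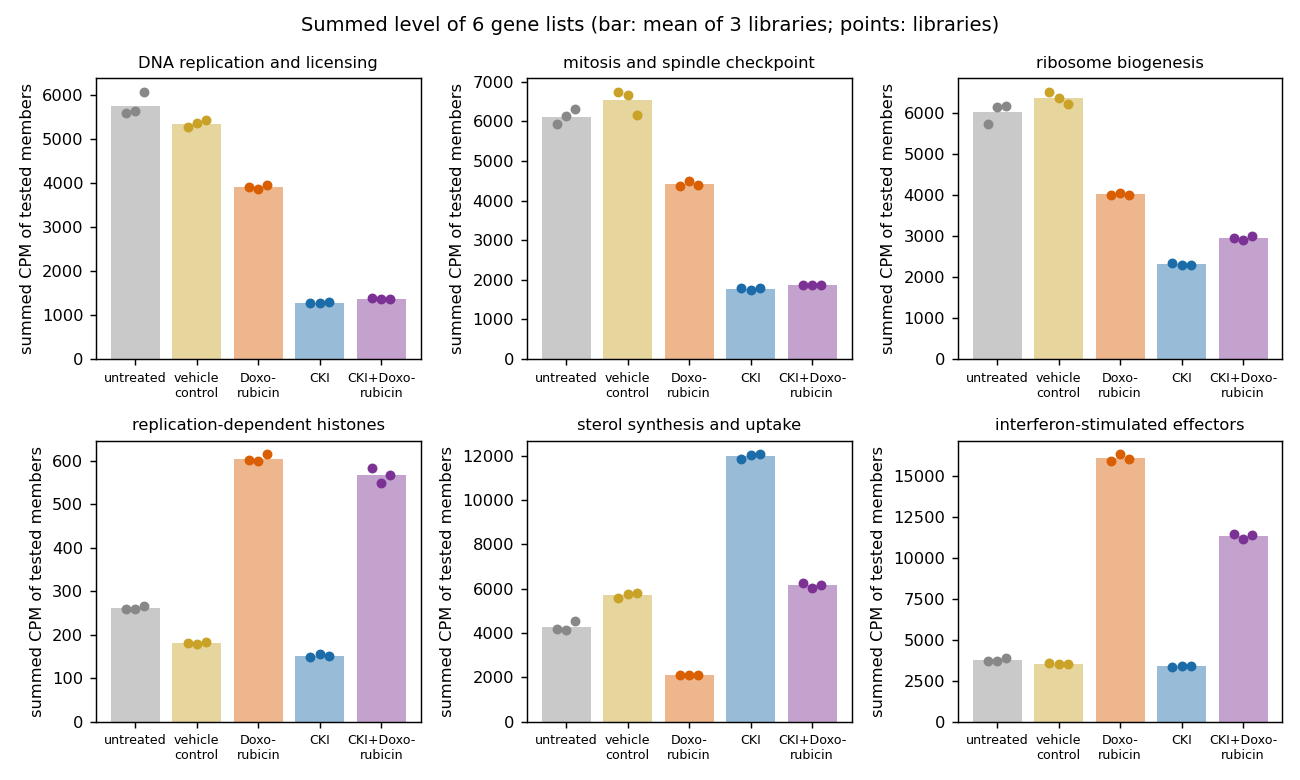
Summed CPM of the tested members of 6 gene lists in the 5 A431 groups, with the bar at the mean of 3 libraries and points for libraries. Replication, mitosis and ribosome genes are low in both groups given CKI, histones and interferon effectors are high in both groups given doxorubicin, and the sterol genes are highest under CKI.

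Sterol synthesis and uptake genes fell. Beside 9.06% of all tested genes, 12 of the 25 tested here were lower and none was higher. The median log2 fold change of the 25 was -1.0. Their summed level was 11864 to 12053 CPM under CKI and 6045 to 6263 CPM with doxorubicin added, whereas untreated cells were at 4130 to 4562 CPM and doxorubicin cells at 2099 to 2120 CPM. LSS (chr21:47608055-47648738), which closes the sterol rings to give lanosterol, was at 492, 505 and 483 CPM against 126, 120 and 114 CPM (log2 fold change -2.04, SE 0.082, adjusted p = 1.0e-15). The 2 groups did not overlap.

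SREBF1, a transcription factor of lipid synthesis, was at 444, 525 and 480 CPM against 162, 152 and 142 CPM (log2 fold change -1.67, SE 0.14, adjusted p = 5.9e-10). SREBF2, the main regulator of the sterol genes, had -1.0 (SE 0.065, adjusted p = 5.4e-12), which did not pass the fold limit. Doxorubicin without CKI lowered 10 of the 25 (median -0.94), and the difference of the responses was called for 2 higher and 2 lower genes (median 0.03). With vehicle control in place of untreated cells it was called for 5 higher and 2 lower genes (median 0.60). LSS was among the lower genes with either control. Its difference was -1.54 against untreated cells (SE 0.12, adjusted p = 1.9e-10) and -1.26 against vehicle control cells (SE 0.12). Its log2 fold change without CKI, against untreated cells, was -0.50, which was not called.

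The aryl hydrocarbon receptor battery holds enzymes that the receptor induces on binding planar aromatic compounds. CYP1A1 (chr15:75011883-75017877), the main target of the receptor, separated the groups given CKI from the others, at 423 CPM ± 12.8 (SD, n = 3) with CKI and 3.88 CPM ± 0.416 (SD, n = 3) in untreated cells. Doxorubicin lowered it from 413, 418 and 437 CPM to 115, 118 and 122 CPM under CKI (log2 fold change -1.84, SE 0.064, adjusted p = 8.2e-17). Without CKI doxorubicin left it at 3.82 CPM ± 0.0975 (SD, n = 3), a log2 fold change of -0.02 (SE 0.13), and the responses differed by -1.82 (SE 0.15, adjusted p = 4.2e-10).

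ALDH3A1 (chr17:19641297-19652256), an aldehyde dehydrogenase of the same battery, was at 102, 109 and 109 CPM against 6.01, 6.46 and 5.78 CPM (log2 fold change -4.13, SE 0.086, adjusted p = 1.5e-20). It fell without CKI too, by 2.73, and the responses differed by -1.40 (SE 0.13, adjusted p = 3.1e-09). UGT1A10, a glucuronidation enzyme, had -3.77 (SE 0.12), and UGT1A6 had -2.39 (SE 0.14). The UGT1A genes share exons, so their counts are not separate. Of the 10 tested members of the battery, 3 fell and CYP1A2 alone rose, with a median of -0.52. The CYP1A2 call was lost with DESeq2 and without CKI replicate 1 or 3 or CKI plus doxorubicin replicate 1 or 2, each of which left 0 higher.

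The targets, pumps and reductases of doxorubicin were 2 higher and 6 lower of 23 (median -0.34). Of all tested genes, 16.6% were higher and 9.06% lower. Of the 5 aldo-keto reductases on the list, enzymes that can convert doxorubicin to its alcohol, AKR1C1, AKR1C2 and AKR1C3 fell, and AKR1A1 (-0.98) and AKR1B10 (-0.72) were not called. AKR1C1 was at 157, 161 and 159 CPM against 33.7, 38.9 and 32.0 CPM (log2 fold change -2.19, SE 0.073, adjusted p = 3.6e-17), and AKR1C2, its near copy, had -2.13 (SE 0.057, adjusted p = 8.4e-19). ABCB1 (chr7:87132333-87342639), the efflux pump P-glycoprotein, had no count in any CKI library and 27, 26 and 20 counts with doxorubicin added, at least 7.73-fold higher against 3 counts per library. Its level there was 1.25, 1.24 and 1.01 CPM, whereas the pumps ABCC1 and ABCG2 fell with log2 fold changes of -1.27 and -1.10.

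The immediate early genes FOS and FOSB fell. FOS (chr14:75745529-75748933), a subunit of the AP-1 factor, was at 719, 894 and 847 CPM under CKI and at 66.9, 60.4 and 63.8 CPM with doxorubicin added (log2 fold change -3.69, SE 0.094, adjusted p = 4.0e-19). FOSB (chr19:45971253-45978437), of the same family, was at 831, 986 and 903 CPM against 85.8, 82.5 and 75.8 CPM (log2 fold change -3.48, SE 0.11, adjusted p = 8.6e-18). In both genes the lowest CKI library was far above the highest library with doxorubicin.

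The comparison of these genes with the response outside CKI depended on the control. FOS was at 131 CPM ± 17.6 (SD, n = 3) in untreated cells and 744 CPM ± 51.3 (SD, n = 3) in vehicle control cells, and FOSB at 31.2 CPM ± 5.48 (SD, n = 3) and 684 CPM ± 70.0 (SD, n = 3). Against untreated cells the responses differed by -2.72 for FOS (SE 0.13, adjusted p = 6.2e-14) and by -6.04 for FOSB (SE 0.15, adjusted p = 8.4e-18). Against vehicle control cells they differed by -0.22 for FOS, which was not called, and by -1.58 for FOSB. FOSB thus rose with doxorubicin against untreated cells (log2 fold change 2.56) and fell under CKI. With doxorubicin alone FOSB was at 184 CPM ± 22.8 (SD, n = 3), which is below the vehicle control cells. The opposite directions therefore hold against untreated cells and not against vehicle control cells.

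Other large falls were in genes that CKI cells held above the other groups. PADI3 (chr1:17575593-17610728), which converts arginine to citrulline in hair follicle proteins, was at 43.6, 44.9 and 46.5 CPM under CKI and at 2.59, 2.68 and 1.56 CPM with doxorubicin added (log2 fold change -4.29, SE 0.13, adjusted p = 1.1e-17), with 4.03 CPM ± 0.289 (SD, n = 3) in untreated cells. KLF2 (chr19:16435637-16439496), a Krüppel-like transcription factor, was at 15.9, 16.3 and 15.2 CPM against 1.25, 0.67 and 1.01 CPM (log2 fold change -4.01, SE 0.20, adjusted p = 4.0e-14). ATOH8 (chr2:85978467-86018506), a basic helix-loop-helix factor, was at 8.57, 10.3 and 8.26 CPM against 0.509, 0.383 and 0.402 CPM (log2 fold change -4.37, SE 0.21, adjusted p = 1.8e-14). Doxorubicin without CKI changed none of the 3 past the thresholds, and the responses differed by -3.65, -3.83 and -3.45 against untreated cells and by -3.89, -2.64 and -3.82 against vehicle control cells. The non-coding LINC03040 fell likewise, from 28.6, 30.2 and 27.6 CPM to 1.94, 1.96 and 1.91 CPM, and it overlaps the antisense gene SCIRT.

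RXRA (chr9:137208944-137332431), the partner receptor of many nuclear receptors, took another course. It was at 250, 278 and 264 CPM under CKI and at 18.3, 17.5 and 17.9 CPM with doxorubicin added (log2 fold change -3.88, SE 0.12, adjusted p = 5.8e-18). Without CKI it fell from 326 CPM ± 21.8 (SD, n = 3) to 2.24 CPM ± 0.521 (SD, n = 3), a log2 fold change of -7.18 (SE 0.15, adjusted p = 5.6e-21). The fall under CKI was the smaller by 3.30 on the log2 scale (SE 0.20, adjusted p = 5.3e-12).

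**Figure D4:**
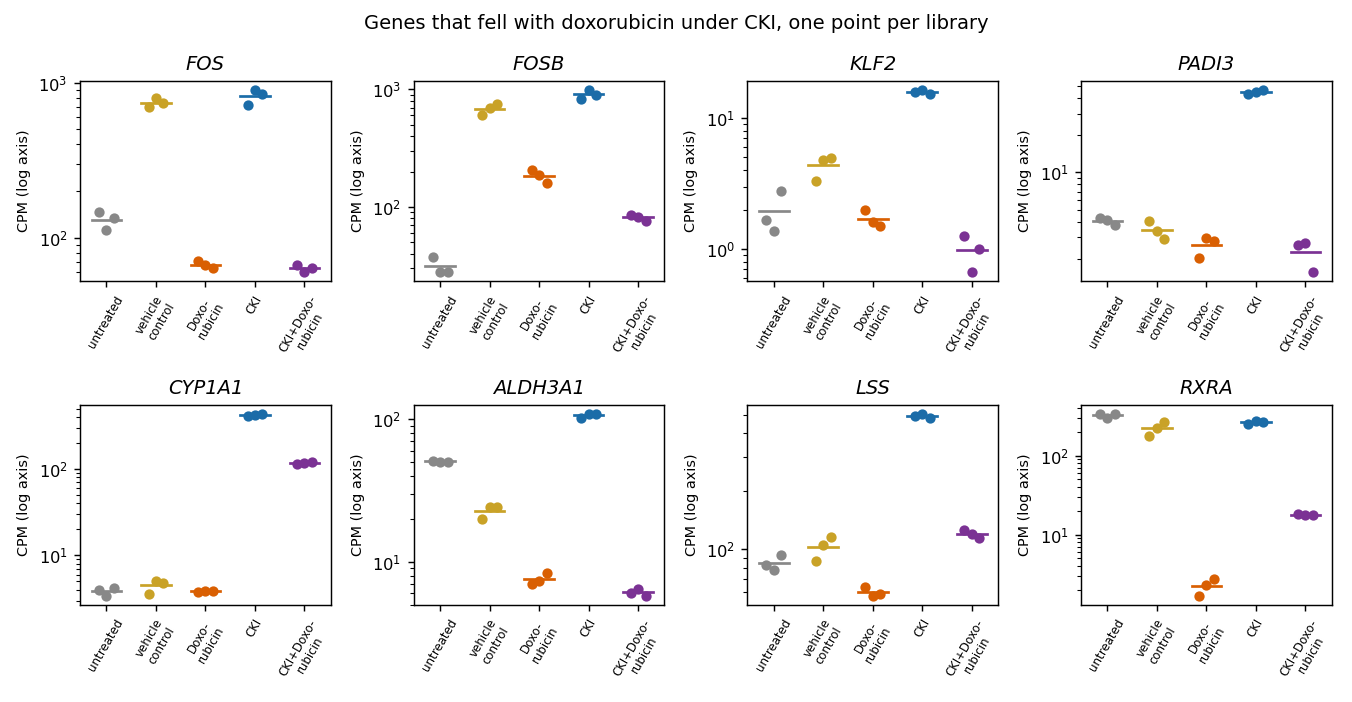
CPM of 8 genes that fell when doxorubicin was added to CKI, on a log axis, with 1 point per library and a line at the mean of 3 libraries in the 5 A431 groups. FOS and FOSB are higher in vehicle control than in untreated libraries, CYP1A1, PADI3 and KLF2 are highest under CKI, and RXRA is lowest with doxorubicin alone.

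Keratinocyte genes moved in both directions. Of 28 tested genes of epidermal differentiation and the cornified envelope, 13 rose and 3 fell (median 0.71). At 1 CPM or more under CKI, 9 of 24 rose and 3 fell. All tested genes were 16.6% higher and 9.06% lower. The summed level of the list was 2013 to 2148 CPM under CKI and 2076 to 2157 CPM with doxorubicin added. SPRR1A (chr1:152956557-152958290), a proline-rich precursor of the envelope, was at 1.70, 1.44 and 1.06 CPM against 23.5, 23.9 and 23.7 CPM (log2 fold change 4.07, SE 0.14, adjusted p = 1.2e-16). Doxorubicin without CKI left it at -0.18 (SE 0.22), and the responses differed by 4.24 (SE 0.28, adjusted p = 2.3e-11). DSG1, a desmosomal cadherin of the upper epidermis, had 1, 0 and 0 counts against 49, 34 and 50 counts, a ratio of 127 (95% exact interval 22.4 to 5059). TGM3, a transglutaminase that joins envelope proteins, had a log2 fold change of 4.02 (SE 0.63, adjusted p = 6.0e-06). The 3 that fell were LY6D (-3.56), RHCG (-1.77) and EVPL (-1.30).

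Of 17 keratins, 5 rose and 1 fell (median 0.36), beside 16.6% higher and 9.06% lower of all tested genes. At 1 CPM or more under CKI, 4 of 16 rose and 1 fell. KRT75, a keratin of the hair follicle companion layer, was at 0.969, 0.595 and 1.01 CPM against 17.7, 17.1 and 18.6 CPM (log2 fold change 4.37, SE 0.17, adjusted p = 8.7e-16). KRT16 and KRT17, keratins of stressed and wounded epidermis, rose by log2 fold changes of 1.41 (SE 0.074) and 1.32 (SE 0.081). KRT4, a keratin of moist stratified epithelia, fell from 6.25, 8.14 and 8.58 CPM to 1.16, 0.909 and 0.855 CPM (log2 fold change -2.96, SE 0.20, adjusted p = 8.0e-12). KRT24, which is outside this list and named by the difference of the responses, had no count in any CKI library and 44, 45 and 46 counts with doxorubicin added, at least 14.4-fold higher against 3 counts per library.

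EGFR and its family were 1 higher and 2 lower of 11 (median -0.53), beside 16.6% higher and 9.06% lower of all tested genes. EGFR (chr7:55086710-55279321), the receptor that A431 cells carry in excess, was at 3271, 3393 and 3379 CPM against 1606, 1549 and 1565 CPM (log2 fold change -1.09, SE 0.048, adjusted p = 5.7e-15). With scaling by library size alone the value was -0.88, within the fold limit. HBEGF, one of its ligands, was at 174, 196 and 189 CPM against 81.5, 77.6 and 82.9 CPM (log2 fold change -1.21, SE 0.066, adjusted p = 2.4e-13). The ligand EPGN rose (1.41), and without CKI plus doxorubicin replicate 1 no member was called higher.

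Among cytokines, chemokines and NF-κB feedback genes, 6 of 23 rose and 1 fell (median 0.59). All tested genes were 16.6% higher and 9.06% lower. Of the 20 list members at 1 CPM or more under CKI, 3 rose and 1 fell (median 0.46), a share of risers near that of all tested genes. IL24, a cytokine of the IL-10 family, was at 0.291, 0.397 and 0.371 CPM against 18, 15.3 and 17.6 CPM (log2 fold change 5.57, SE 0.21, adjusted p = 4.7e-16). IL6, an inflammatory cytokine, was at 1.26, 1.54 and 1.11 CPM against 34.6, 35.8 and 33.8 CPM (log2 fold change 4.72, SE 0.12, adjusted p = 1.8e-19). CXCL10, a chemokine that interferon induces, was at 1.21, 1.74 and 2.06 CPM against 27.5, 30.7 and 30.2 CPM (log2 fold change 4.14, SE 0.13, adjusted p = 7.7e-18). All 3 rose without CKI too, and of these 3 the difference was called for IL24 only, with the larger rise under CKI. Over the list of 23, the difference was called for 4 higher and 2 lower genes (median 0.34). With vehicle control in place of untreated cells it was called for 14 higher and 1 lower (median 1.97). The summed level was 1481 to 1533 CPM in untreated cells and 4058 to 4599 CPM in vehicle control cells. IL1B fell (-1.43).

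Secreted proteases and the plasminogen system were 2 higher and 4 lower of 14 (median 0.39). All tested genes were 16.6% higher and 9.06% lower. MMP14, a membrane collagenase, was at 1739, 1867 and 1836 CPM against 476, 442 and 454 CPM (log2 fold change -1.99, SE 0.077, adjusted p = 4.9e-16), and SERPINB2, an inhibitor of urokinase, was at 270, 314 and 317 CPM against 1046, 1116 and 1090 CPM (log2 fold change 1.85, SE 0.091, adjusted p = 3.8e-14). TIMP3, an inhibitor of metalloproteinases, fell with -1.52 (SE 0.053). DESeq2 called 4 members higher.

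In the ATF4 stress response, which limits translation and raises amino acid supply, 2 of 15 rose and 6 fell (median -0.51). Over all tested genes 16.6% rose and 9.06% fell. SLC7A11, the cystine importer, was at 126, 125 and 124 CPM against 21.7, 21.1 and 21.1 CPM (log2 fold change -2.55, SE 0.081, adjusted p = 1.6e-17). DDIT4, an inhibitor of mTORC1, had -1.83 (SE 0.10), and DDIT3, which encodes CHOP, rose with 1.54 (SE 0.068), so members of one list moved apart. Without CKI plus doxorubicin replicate 2, 1 member was called higher.

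Of 21 death receptor and BCL2 family genes, 3 rose and none fell (median -0.13), a share near the 16.6% of all tested genes that rose. BCL2A1, an anti-apoptotic member, was at 0.92, 1.34 and 1.54 CPM against 19.7, 19.9 and 20.5 CPM (log2 fold change 3.99, SE 0.15, adjusted p = 2.6e-16). Without CKI it fell, from 5.82 CPM ± 0.669 (SD, n = 3) to 2.34 CPM ± 0.195 (SD, n = 3), and the responses differed by 5.31 (SE 0.22, adjusted p = 1.5e-14), the largest positive difference among genes at 5 CPM or more. HRK, a pro-apoptotic BH3-only member, rose as well (log2 fold change 1.87, SE 0.21), and TNFRSF10A, a receptor of TRAIL, had 1.00 (SE 0.061), a call at the fold limit that was lost when any of 4 single libraries was left out.

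Of the 8 largest rises among genes at 5 CPM or more, ANKRD1 was at 1.74, 1.84 and 1.69 CPM under CKI and the others were under 1 CPM there. NPPB, the B-type natriuretic peptide, had 2, 3 and 2 counts under CKI and 432, 410 and 402 counts with doxorubicin added, a ratio of 170 (95% exact interval 82.2 to 423). C4BPB, a chain of a complement inhibitor, had 1, 0 and 0 counts against 100, 129 and 110, a ratio of 324 (95% exact interval 57.8 to 12837), and ATP8A2, a phospholipid flippase, had 0, 0 and 1 against 110, 101 and 109, a ratio of 306 (95% exact interval 54.5 to 12120). BAMBI, a decoy receptor of TGF-β signals, RGS4, a regulator of G protein signalling, and ANKRD1, a target of YAP, had log2 fold changes of 5.60 (SE 0.34), 5.73 (SE 0.30) and 5.54 (SE 0.11), and IL24 and ZBP1 completed the set.

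By a rule on counts, 145 genes were switched on, with at most 3 counts in each CKI library and at least 1 CPM in each CKI plus doxorubicin library, out of 8814 genes with at most 3 counts under CKI. CHN2 and 1 row with no symbol had the same counts in every library, so 144 of the 145 were distinct. Only LSP1 and FAM30A were switched off. Of the 145, 140 were protein-coding, 121 had at most 3 counts in each untreated library, and 75 also reached 1 CPM in every doxorubicin library. The highest mean was 19.9 CPM (NPPB) and the median 1.54 CPM. PPY, the pancreatic polypeptide, had no count under CKI and 82, 119 and 100 counts with doxorubicin added, at least 32.1-fold higher against 3 counts per library. The switched-on genes included genes of other tissues, such as RYR2, a calcium channel of heart muscle, and RELN, a matrix protein of the developing brain, both chosen here after their values were seen.

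Markers of other cell types moved in both directions. Of 7 mesenchymal markers, 4 rose and 1 fell, and their summed level was 491 to 511 CPM under CKI and 1099 to 1159 CPM with doxorubicin added, most of it FN1. VIM was at 2.28, 3.22 and 2.75 CPM against 11.2, 10.7 and 11 CPM (log2 fold change 1.99, SE 0.13, adjusted p = 8.1e-12). Of the fibroblast markers 2 of 4 tested rose and 1 fell (45.8 to 49.5 CPM against 55.9 to 62.1 CPM summed), of the haematopoietic 2 of 3 rose (5.46 to 7.62 against 7.03 to 8.65 CPM), of the endothelial 2 of 3 rose (38 to 40.9 against 45 to 47 CPM), and of the melanocyte 2 of 2 rose (2.03 to 3.33 against 7.14 to 8.32 CPM). The haematopoietic count was 1 without CKI replicate 2 or CKI plus doxorubicin replicate 3, where ITGAM was not called. PTPRC, the leukocyte marker CD45, had no count in any CKI library and 36, 25 and 39 counts with doxorubicin added. THY1 did not exceed 0.0478 CPM in the 6 libraries. The filter left 2 fibroblast, 3 haematopoietic and 2 melanocyte markers untested. It kept some that were near 0 under CKI and could only rise. At 1 CPM or more under CKI, 2 of 4 mesenchymal and 0 of 2 fibroblast markers rose. At that level 1 of 2 haematopoietic, 1 of 2 endothelial and 1 of 1 melanocyte markers rose. The part of other cell types in the rising genes was not tested.

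Gene properties that the comparison did not use also differed. Of 10 equal bins by transcript GC content, the highest (62.0 to 76.0%) had 21.6% of its genes lower and 9.78% higher, and the lowest (30.7 to 38.6%) had 3.49% lower and 15.9% higher. The median log2 fold changes of these bins were -0.34 and 0.14. In the bin of longest genomic span, from 175267 bases, 29.5% rose and 16.0% fell, the highest share of calls of any span bin. Across the 15741 genes with a value, Spearman's rho of the log2 fold change with GC content was -0.16, and across the 15843 with a span it was -0.05, both as descriptions, since genes share libraries and are not replicates. After offsets for GC content and transcript length, 88.8% of the calls were kept.

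**Figure D5:**
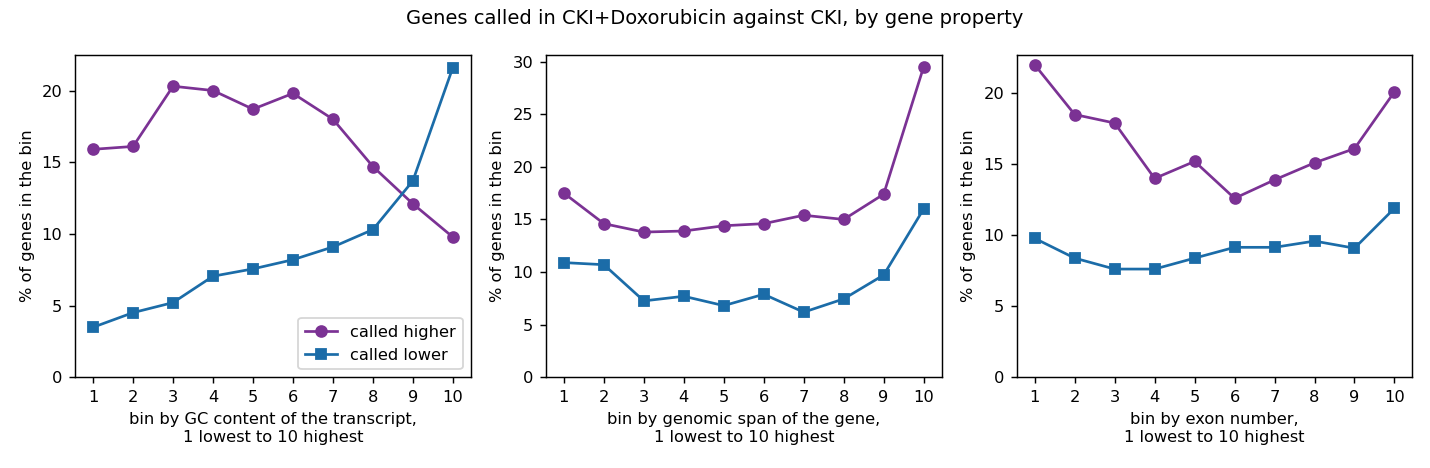
Percent of genes called higher or lower with doxorubicin under CKI in 10 equal bins of transcript GC content, genomic span and exon number, from lowest to highest. The share called lower rises from 3.49% to 21.6% with GC content, and the longest genes have the largest shares in both directions.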

How the data were processed

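RNA was sequenced as paired reads from A431 and MDA-MB-231 cells. Per the labels and the study's methods, the authors trimmed reads with Trim Galore 0.3.7, aligned them to hg19 with STAR 2.5.3a and deposited raw read counts per gene. The counting tool, the annotation and the use of strand are not given in the sources used here, so reads of overlapping genes may be misplaced. The study's paper describes no doxorubicin library. The table held 24566 genes, of which 24422 Entrez IDs matched a symbol in RefSeq (GRCh38.p14) and 99.49% a GRCh37 GENCODE gene. All 27 columns matched a label.

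The 15 A431 libraries of 5 groups (17757206 to 21756536 counts) were fitted with edgeR 4.0.16 in R 4.3.3 (filterByExpr, TMM, glmQLFit, glmQLFTest). The contrasts were CKI plus doxorubicin minus CKI, doxorubicin minus untreated, and their difference, with Benjamini-Hochberg adjustment over the 15881 tested genes. The procedure was tested on simulated data. The 21 gene lists, 6 marker lists and rules were chosen with earlier results of these data known, and 1 further list and some genes are not reported here. Lists are given by counts and medians, with no test of the list. Named genes were the 8 largest rises and falls at 5 CPM or more, up to 3 called members per list at 1 CPM or more (in each case with groups that did not overlap), the 5 largest differences of responses in each direction, CYP1A1, and regulators such as TOP2A, CDKN1A, FOXM1, E2F1, SREBF2 and EGFR. Other genes were named after their values were seen. Ratios of low counts have 95% exact intervals for counting error only. Alternatives were other scalings, filters and tools (DESeq2 1.42.0), offsets, pairing, controls and left-out libraries, and 1 row per Ensembl ID, which was chosen after seeing the data because 194 IDs stood on several rows with identical counts.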

Additional observations from a re-analysis of the deposited data

Results flagged for a closer look

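The response to doxorubicin differed with and without CKI in 37 of the named genes, by the test of the difference itself in edgeR (Benjamini-Hochberg adjusted p under 0.05 over all genes tested and a difference beyond 1 on the log2 scale). All values here are log2 fold changes under CKI minus those without CKI, with untreated cells as the control of the latter.

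The most negative differences were in genes that doxorubicin raised more without CKI. The non-coding MAFA-AS1 had -6.90, AZU1, a neutrophil granule protein, -6.60, and GRIP2, a synaptic scaffold, -6.28. MAFA-AS1 had no count in any untreated library, so the size of its difference depends on the prior of the fit. AZU1 was at 35.4 CPM with doxorubicin and at 0.0529 to 1.02 CPM in the 6 libraries of the CKI and CKI plus doxorubicin groups.

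FOSB had -6.04 and FOS -2.72. KLF2 had -3.83, PADI3 -3.65, ATOH8 -3.45 and LINC03040 -3.26. HBEGF had -2.12, CYP1A1 -1.82, CDKN1A -1.71, RIGI -1.56, LSS -1.54, KRT4 -1.44 and ALDH3A1 -1.40. KRT17 had -1.22, MMP14 -1.17, DDIT3 -1.16, IFI6 -1.10 and UGT1A10 -1.0.

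The positive differences were largest in BCL2A1 with 5.31, HSPA6, a heat shock protein, with 4.48, and CCND2, the cyclin D2 gene, with 4.46. Doxorubicin lowered CCND2 without CKI, from 11.8 to 0.897 CPM, and under CKI its libraries stood at 1.60, 1.44 and 1.64 CPM against 2.68, 2.63 and 2.57 CPM. CCND2 overlaps antisense genes, and its counts cannot be told apart from theirs. HSPA6 went from 6.32 to 1.34 CPM without CKI, and vehicle control cells were at 1.13 CPM. H4C11 had 4.27, SPRR1A 4.24, KRT24 4.21, CDH5, an endothelial cadherin, 3.38 and RXRA 3.30. KRT24 had no count in any CKI library, so the size of its difference too depends on the prior. A positive difference is not a higher level reached. KRT24 was at 11.9 CPM with doxorubicin alone and 2.17 CPM with CKI plus doxorubicin, and H4C11 at 1.42 and 1.19 CPM. SPRR1A, CDH5 and RXRA had the higher mean with CKI plus doxorubicin. H3C4 had 2.46, IL24 2.27, TIPIN 2.23, RGS4 1.98, IRF9 1.60, ITGB4 1.27, RFC3 1.22 and DDIT4 1.06.

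When vehicle control cells replaced the untreated ones, 10 of the 37 differences were no longer called. These were FOS (-0.22), HBEGF (-0.19), DDIT3 (-0.34), KRT17 (-0.50), CDKN1A (-0.74), RIGI (-0.99), IRF9 (1.0), DDIT4 (0.51), ITGB4 (0.89) and H3C4 (1.06, adjusted p = 0.060). The RGS4, IL24, UGT1A10 and DDIT4 calls were also lost when single libraries were left out. For RGS4 the value then ranged down to 1.68 without untreated replicate 3, and for IL24 it was 1.49 without untreated replicate 1.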

How the results depend on the processing

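The calls of doxorubicin added to CKI numbered 3550 to 4157 under RLE factors, library size alone, DESeq2, the likelihood ratio test, offsets, the compared groups alone and 1 row per Ensembl ID, and 4210 to 4405 with 1 of the compared libraries left out. With no filter on low counts they numbered 6171 (4581 higher), with at least 10 counts in every library 1837 (809 higher, or 44%), and with the adjusted p alone 11634 (6108 higher and 5526 lower). For doxorubicin without CKI, library size alone gave 1313 lower genes, no filter 5634 higher, at least 10 counts 3197 (1618 higher), and the adjusted p alone 12802 (6467 higher and 6335 lower). The difference of the responses gave 9117 genes (4981 higher and 4136 lower) with the adjusted p alone and 3346 with vehicle control. With at most 10 counts in place of 3, 347 genes were switched on and 18 off, so these counts depend on the floor.

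CDKN1A changed sign, without a call, at -0.02 with no filter and at -0.06 under offsets with and without the replicate block, and it ranged from -0.04 to 0.03 when a library was left out. AZU1, not called, ranged from -0.25 without CKI plus doxorubicin replicate 3 to 1.36 without CKI replicate 1. EGFR was within the fold limit at -0.88 under library size alone and -0.99 under offsets. TNFRSF10A, RRN3, NOP56 and ITGAM also lost their call under at least 1 setting, and SREBF2 gained one. Library size alone called 5 replication genes higher, and the filter of 10 counts kept 13 histone calls. The cause was not tested.

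The deviations of same-numbered libraries had correlations of -0.05, -0.02 and 0.02 for the groups under CKI. For the groups without it they were 0.02, 0.01 and 0.05. These values run over all genes, scarce ones included, and cannot show whether same-numbered libraries were handled together. The chi-square of the counts per degree of freedom was 3.52, 2.29 and 2.01 for CKI replicates 1 and 2, 1 and 3, and 2 and 3. In CKI plus doxorubicin it was 3.61, 2.34 and 2.12 in the same order. A shared batch was not tested. With the replicate block the calls numbered 4068, 5919 and 3059. Depth limits genes under about 1 CPM, where most of the higher calls lie.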

Other observations

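Abundant genes outside the lists fell with doxorubicin under CKI. GAS6, a ligand of the TAM receptors, went from 674 CPM ± 19.5 (SD, n = 3) to 82.6 CPM ± 3.85 (SD, n = 3), a log2 fold change of -3.03 (SE 0.080, edgeR adjusted p = 7.3e-19). CELSR1, a cadherin of planar polarity, went from 355 CPM ± 8.40 (SD, n = 3) to 44.2 CPM ± 1.82 (SD, n = 3), with -3.0 (SE 0.090, edgeR adjusted p = 6.5e-18), and PROM2, a membrane protein of cell protrusions, from 796 CPM ± 24.6 (SD, n = 3) to 115 CPM ± 2.11 (SD, n = 3), with -2.79 (SE 0.068, edgeR adjusted p = 1.9e-19). Without CKI the same genes had log2 fold changes of -4.11, -4.69 and -2.88, and the responses differed by 1.08 for GAS6 and 1.69 for CELSR1. These genes were named after their values were seen.

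The shares of called genes are given by gene type, with no test between types. Of 984 lncRNA genes, 268 rose (27.2%) and 83 fell (8.43%), with a median log2 fold change of 0.42, beside 15.8% higher and 9.07% lower of 14550 protein-coding genes, with a median of 0.03. Of 28 snoRNA genes, 10 rose and none fell, and of 22 miRNA genes 1 rose and 4 fell. These genes mostly lie within others, and strand was not known, so the counts may hold reads of their hosts.

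The promoter windows of the 44 mitosis entries, of which no gene was called, held CCAAT in 77.3% and TTTGAA or TTTAAA in 81.8%, beside 34.4% and 18.1% of all tested genes. The windows of the called histones held CCAAT in 87.5%. Of all genes called higher, 4.86% of windows held the interferon element letters, beside 3.01% of all tested genes.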
